A study of Mus musculus with 9 samples.

Results

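The RNA and DNA sensors described here were 9 genes, Ddx58, Ifih1, Dhx58, Ddx60, Mavs, Tlr3, Zbp1, Eif2ak2 and Adar, chosen by name and read by every probe set annotated to 1 of them alone. They had 21 probe sets of the 45101 on the array, and 9 genes of the 18194 with a symbol of their own. The study's 9 arrays fell into 4 that held choroid plexus of male apoE-/- mice, in which the gene of apolipoprotein E is deleted, and 5 that held the same tissue of male wild-type mice. All mice were labelled strain C57BL, 78 weeks old and kept on normal chow. The tissue was cut from frozen nervous system by laser capture microdissection, and 1 array was made per sample. How many animals stand behind each capture is not in the labels, and the p-values below therefore reflect only how far these samples scatter, some of which may be technical.

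The choroid plexus is a folded epithelium over a vascular stroma in the brain ventricles, and it secretes cerebrospinal fluid. Its cells carry receptors that recognise nucleic acids out of place. Ddx58 (RIG-I) and Ifih1 (MDA5) are cytosolic helicases that bind viral or misplaced double-stranded RNA and pass the signal to Mavs on the mitochondrial membrane, which leads to type I interferon. Dhx58 (LGP2) is their relative without the signalling domains, Tlr3 senses double-stranded RNA in endosomes, and Zbp1 binds Z-form nucleic acids. Eif2ak2 (PKR) is a kinase that stops translation when it binds double-stranded RNA, Adar edits adenosine in such RNA so that the cell's own transcripts are not sensed, and Ddx60 is a helicase described as an antiviral factor that can aid RIG-I. Apart from Mavs, these genes are widely known to be induced by interferon, through promoter elements called interferon-stimulated response elements.

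Promoters of 7 of the 9 genes were read in RefSeq (GRCm38.p6, 250 bases before to 50 after each annotated start), 9 promoters in all. Both strands were searched for GAAANNGAAA, the core of such an element, and for GAAANNGAAACT, which contains it. The promoters of Ddx60 and Ifih1 are shown whole because these are the genes that passed the test below. Stretches of 60 bases are shown for Ddx58 and Eif2ak2, the other genes with a match. Each is written 5′ to 3′ along the gene, and capitals mark the matches.
Ddx60, chr8:61927837-61928136, plus strand: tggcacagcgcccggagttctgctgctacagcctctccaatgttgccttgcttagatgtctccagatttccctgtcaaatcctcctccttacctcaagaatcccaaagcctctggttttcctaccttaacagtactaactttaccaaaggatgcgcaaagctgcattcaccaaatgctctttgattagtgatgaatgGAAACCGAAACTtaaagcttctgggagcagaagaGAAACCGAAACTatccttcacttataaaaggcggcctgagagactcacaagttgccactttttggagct
Ifih1, chr2:62646206-62646505, minus strand: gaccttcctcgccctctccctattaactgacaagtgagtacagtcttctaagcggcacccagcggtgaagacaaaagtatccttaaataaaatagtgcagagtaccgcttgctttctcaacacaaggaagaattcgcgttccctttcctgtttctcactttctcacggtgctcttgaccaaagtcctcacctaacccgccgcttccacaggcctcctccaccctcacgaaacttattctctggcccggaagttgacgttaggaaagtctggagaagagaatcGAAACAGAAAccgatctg
Ddx58, chr4:40239790-40239849, minus strand: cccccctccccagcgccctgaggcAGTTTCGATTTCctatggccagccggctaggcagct
Eif2ak2, chr17:78882523-78882582, minus strand: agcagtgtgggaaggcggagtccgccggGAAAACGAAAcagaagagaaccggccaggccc

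The Ddx60 promoter held the 12-letter form at 2 places, with first bases 53 and 19 bases before the start, both on the strand of the gene and both reading GAAACCGAAACT. The start used for this window is not the first base of the gene as given below, 61928073, which lies upstream of it and inside the window. Ddx58 held it once on the opposite strand, at the start itself. Ifih1 and Eif2ak2 held only the 10-letter core, 32 and 18 bases after the start. No match to either form was found in these windows for Mavs, Tlr3 or the 3 promoters of Adar. Only exact matches were sought, so near matches in any of these windows were not scored. Of all 32851 promoters in the table, 3.44% held the core and 0.271% the 12-letter form. Of 37 promoters of a list of other interferon-induced genes, 17 held the core and 11 the 12-letter form. A match describes letters in a window and does not show binding.

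Each array gave a linear signal intensity per probe set with a call of present, marginal or absent. The share called present was 44.0% to 49.1%, and correlations of tested values were 0.967 to 0.983 within and 0.956 to 0.976 between groups. Apoe, the deleted gene, was called absent on all 4 apoE-/- arrays, with signals of 12.2 to 53.8, and present on all 5 wild-type arrays, with signals of 18252 to 23953.1. Ttr, which defines choroid plexus epithelium, had a signal of 23929.7 to 36225.2 in apoE-/- and 21669.1 to 30544.8 in wild-type tissue. Of 11 tested macrophage and microglia markers all read higher in apoE-/- and 3 passed the test. Of all genes tested, 53.4% read higher and 0.794% were called higher. The summed macrophage and microglia signal was 13326.6 to 19754.2 in apoE-/- against 9885.8 to 15526 in wild-type tissue. Cd14 and Cx3cr1 of the macrophage list were called present on no array, as were 8 of 10 T and NK cell markers, among them Cd3e, Cd3g and Cd4. The 1 tested T and NK cell marker read 0.44 higher on the log2 scale without passing. The summed signal of that list was 600.1 to 917.5 in apoE-/- against 486.5 to 669.4 in wild-type tissue. Ependyma markers read higher in 5 of 5 tested, with a median log2 difference of 0.47, and astrocyte markers in 5 of 6, with a median of 0.19, and 0 of either list passed. Neuron markers read higher in 2 of 6 tested and oligodendrocyte markers in 0 of 2. The summed ependyma signal was 11999.8 to 14564.3 in apoE-/- against 10247.9 to 13230.3 in wild-type tissue, and the astrocyte signal 6063.7 to 6817 against 4979.8 to 6170.7. Stroma and mural cell markers read higher in 5 of 10 tested, and 1 passed. Their summed signal was 42941.1 to 49380.3 in apoE-/- against 40157.9 to 45393.5 in wild-type tissue. Choroid plexus epithelium markers read higher in 7 of 10 tested and endothelium markers in 6 of 9, and 0 of either list passed. The part of these macrophage, T and NK cell, ependyma, astrocyte, and stroma and mural cell markers in the results below was not tested. Wild-type replicate 1 had the highest summed signal of neuron markers (1765.1) and of oligodendrocyte markers (8388.1, against at most 3634.3 on any apoE-/- array).

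Of the 21 sensor probe sets, 14 from 8 genes had a present call on 4 arrays or more and were tested, 13 of them present on all 9. Ddx60 and Ifih1 rose in apoE-/- choroid plexus, 2 of 14 tested probe sets (14.3%), and 0 fell, against 0.67% of all 21478 tested probe sets called higher and 1.92% called lower, 2.59% together (limma, Benjamini-Hochberg adjusted p under 0.05). Of the 14, 12 read higher, where 50.2% of all did. At an unadjusted p under 0.05, 9 read higher and 1 lower, where 7.23% and 9.3% of all tested probe sets did. The median log2 difference, apoE-/- minus wild-type, was 0.36 over the 14 and 0.0014 over all tested probe sets. The sensors were chosen with earlier results of these data known, so these shares and medians are not independent of that choice. In a piece of tissue, more RNA per cell and more cells of a type that holds it cannot be told apart.

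**Figure D1:**
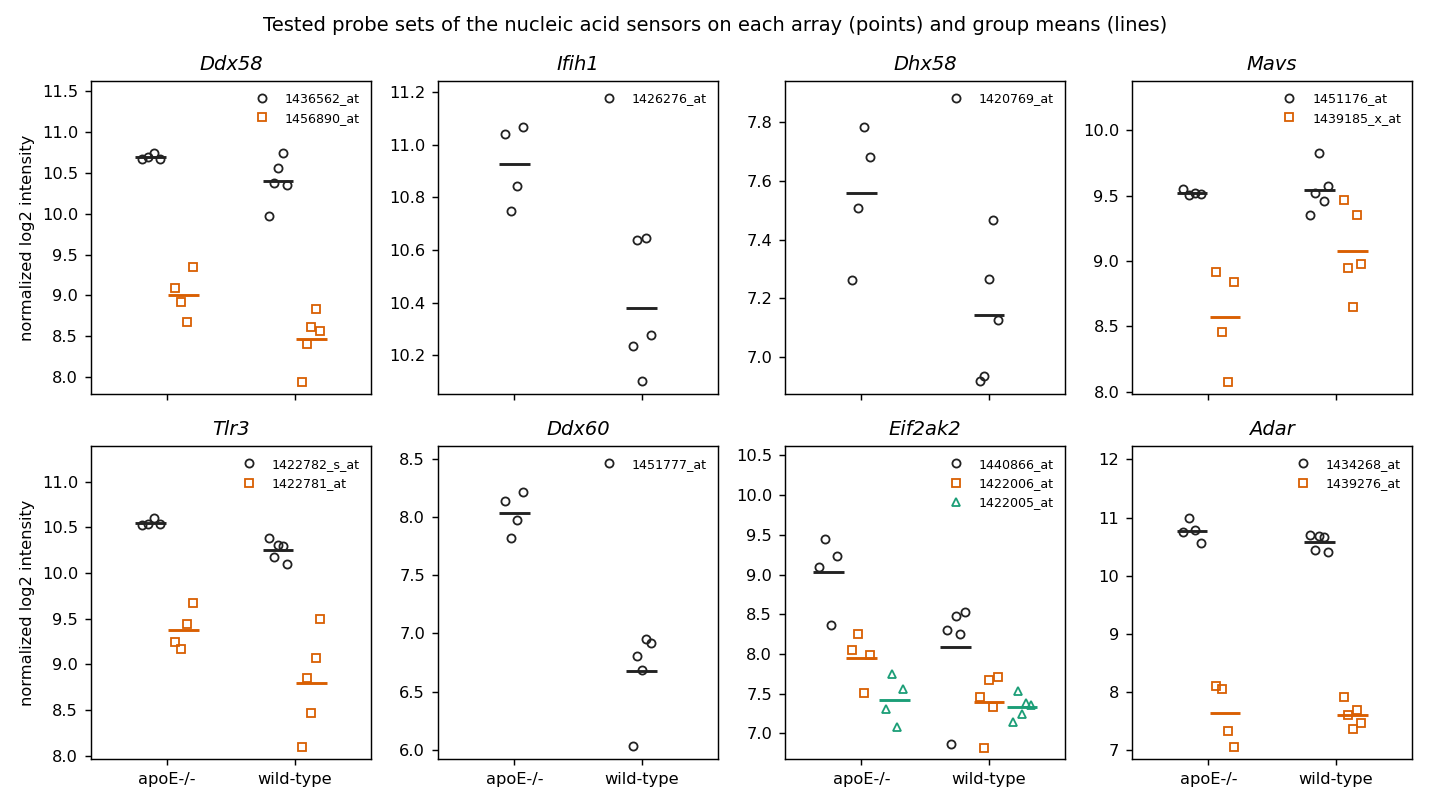
Normalized log2 intensity of the 14 tested probe sets on each array, 1 panel per gene, with apoE-/- arrays (n = 4) left and wild-type arrays (n = 5) right. Points are arrays, lines are group means, and symbols are probe sets; the groups are apart without overlap in Ddx60, Ifih1 and the brighter probe set of Tlr3.

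Ddx60 had the largest difference of the 14. Its probe set 1451777_at had a signal of 279, 241.6, 260.9 and 291.9 in apoE-/- replicates 1 to 4, and 64.1, 106.1, 105.2, 125.3 and 115.5 in wild-type replicates 1 to 5. It was called present on all 4 apoE-/- arrays and on 3 of 5 wild-type arrays, absent in wild-type replicates 1 and 3. Every apoE-/- array lay above every wild-type array, which held for 2.72% of all tested probe sets in that direction and for 4.17% in the other; among the sensors it held for 3 and 0. On the normalized log2 scale Ddx60 averaged 8.03 ± 0.18 in apoE-/- (SD, n = 4) and 6.68 ± 0.38 in wild-type tissue (SD, n = 5). The log2 difference was 1.35 ± 0.21 (SE; limma, adjusted p = 0.0037), or 2.56-fold with a 95% interval of 1.88 to 3.47. The apoE-/- arrays alone were enough for Ddx60 to enter the test, and with no filter on detection its adjusted p was 0.0207 (limma). Of the tested probe sets, 13 had a larger rise. Adding 50 to each signal before the log, which weighs dim values less, gave a log2 difference of 1.02. Its second probe set, 1439114_at, was called absent on every array, with signals of 23.4 to 91.5 in apoE-/- and 6.1 to 31.3 in wild-type tissue, so Ddx60 rests on 1 probe set. The gene lies on chromosome 8 at 61928073 to 62037704 in GRCm38.p6, and Tlr3 on the same chromosome at 45395665 to 45411075.

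Of the 3 RIG-I-like receptors, Ifih1 rose and Ddx58 and Dhx58 did not pass. Ifih1, on chromosome 2 at 62595618 to 62646255, was read by 1 probe set, 1426276_at, with signals of 2138.6, 1691.4, 1823.6 and 2157.3 in apoE-/- replicates 1 to 4 and 1191.1, 1600.4, 1093.5, 1603 and 1272.4 in wild-type replicates 1 to 5. The groups did not overlap, and the nearest arrays were apoE-/- replicate 2 and wild-type replicate 4. The log2 difference was 0.55 ± 0.13 (SE; limma, adjusted p = 0.038), 1.46-fold with an interval of 1.21 to 1.77. The call of Ifih1 was near the threshold. Without apoE-/- replicate 1, 3 or 4 its adjusted p was 0.113, 0.0874 and 0.0689, and without wild-type replicate 1, 3 or 5 it was 0.0717, 0.067 and 0.0675 (limma), with log2 differences of 0.48 to 0.61 over all 9 arrays left out in turn.

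Ddx58 was read by 2 tested probe sets that moved together over the 9 arrays (Pearson r = 0.831, as a description). Its brighter one, 1436562_at, had signals of 1640.3, 1622.2, 1698.2 and 1632.7 in apoE-/- and 988, 1337.4, 1514.8, 1694.2 and 1332 in wild-type replicates 1 to 5. The apoE-/- arrays lay within a narrow band that wild-type replicate 4 reached. The other, 1456890_at, had signals of 414.9 to 651.9 in apoE-/- and 246.9 to 447.2 in wild-type tissue. Their log2 differences were 0.29 (95% interval 0.01 to 0.57, adjusted p = 0.28) and 0.54 (0.15 to 0.93, adjusted p = 0.146), neither passing limma's test. Wild-type replicate 1 was the lowest array in both.

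Dhx58 was measured by 1 of 3 probe sets. That one, 1420769_at, had signals of 147.6, 197.7, 229.8 and 203.6 in apoE-/- replicates 1 to 4 and 119.2, 115.8, 154.4, 176.2 and 133.9 in wild-type replicates 1 to 5. The groups overlapped through apoE-/- replicate 1, and the log2 difference of 0.42 (95% interval 0.03 to 0.81) did not pass (limma, adjusted p = 0.266). The other probe sets of Dhx58, 1451426_at and 1420768_a_at, were called absent on every array. The first of them had signals of 69.4 to 110.1 in apoE-/- and 13.1 to 55.4 in wild-type tissue, without overlap, as did 1.73% of the 19019 probe sets called present on no array in that direction. No fold is given where both groups were called absent.

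Mavs, the adaptor of these receptors, did not read higher. Its brighter probe set, 1451176_at, had signals of 754, 732.2, 744.6 and 730.1 in apoE-/- and 650.5, 724.8, 903, 694.6 and 775.6 in wild-type replicates 1 to 5. The apoE-/- arrays lay inside the wild-type range, with a log2 difference of -0.02 and a 95% interval of -0.27 to 0.22 (limma, adjusted p = 0.943). The other, 1439185_x_at, a design whose probes may also bind other transcripts, read lower without passing, at -0.51 (adjusted p = 0.215), with signals of 278.3 to 488.9 in apoE-/- and 395.5 to 701 in wild-type tissue. Over the 9 arrays the 2 probe sets ran apart (Pearson r = -0.43, as a description).

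Tlr3, the endosomal receptor, read higher by both probe sets without passing. The brighter, 1422782_s_at, had signals of 1482.2, 1457.6, 1539 and 1489.8 in apoE-/- and 1313.9, 1169.5, 1264.5, 1255.3 and 1127.6 in wild-type replicates 1 to 5. These groups did not overlap, and the log2 difference was small, 0.30 with a 95% interval of 0.10 to 0.50 (limma, adjusted p = 0.121). The dimmer, 1422781_at, had signals of 587.4 to 813.8 in apoE-/- and of 274.2 to 735.4 in wild-type tissue, where replicate 5 was high and replicate 1 low. Its log2 difference was 0.58 with an interval of 0.10 to 1.07 (adjusted p = 0.214).

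Zbp1 was the 1 sensor gene that could not be compared. Both its probe sets, 1419604_at and 1429947_a_at, were called absent on all 9 arrays. The first had signals of 15 to 56.8 in apoE-/- and 9.9 to 31.6 in wild-type tissue, the second 33.3 to 148.4 and 16.2 to 68.9 in the same groups.

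**Figure D2:**
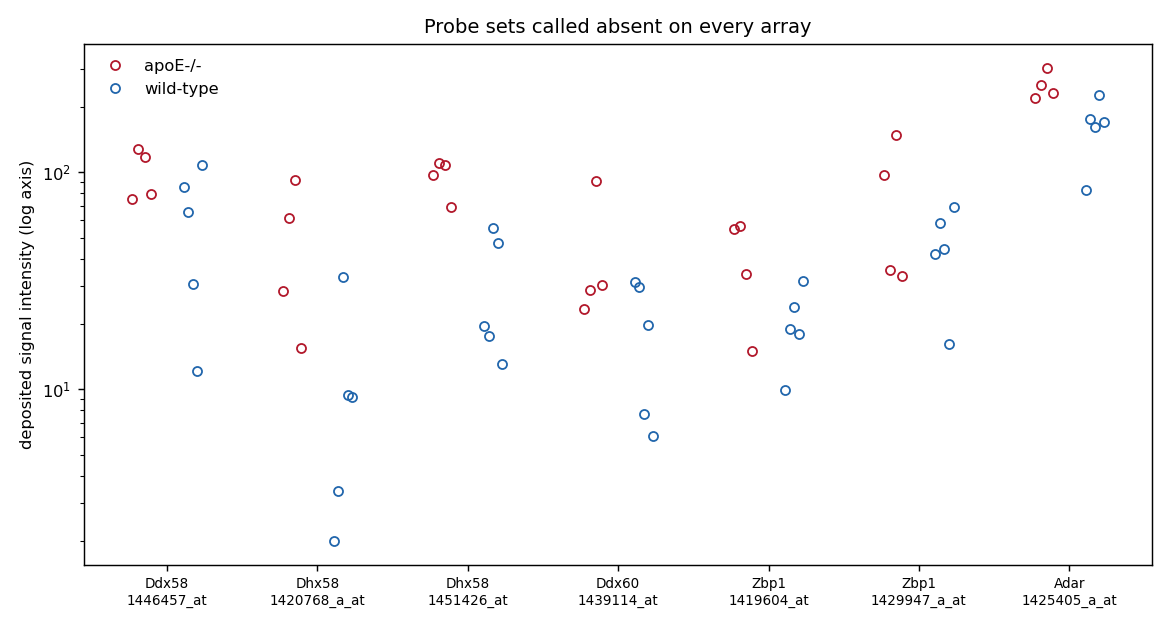
Deposited signal intensity (log axis) of the 7 sensor probe sets called absent on every array, with apoE-/- arrays (n = 4, red) left of wild-type arrays (n = 5, blue) for each probe set. Points are arrays; only Dhx58 1451426_at is without overlap, from 69.4 upwards in apoE-/- and up to 55.4 in wild-type tissue.

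Eif2ak2, the kinase PKR, had 3 tested probe sets that gave different readings. The brightest, 1440866_at, had signals of 549.2, 701.7, 336.3 and 603.3 in apoE-/- and 319.2, 109.7, 348.8, 299.1 and 372.7 in wild-type replicates 1 to 5. Wild-type replicate 2 was far below the others and apoE-/- replicate 3 lay inside the wild-type range. Its log2 difference was 0.95 with a 95% interval of 0.29 to 1.61, the second largest of the 14, and it did not pass (limma, adjusted p = 0.128). Without wild-type replicate 2 the log2 difference was 0.64 (adjusted p = 0.151). The probe set 1422006_at followed the same arrays (r = 0.977 with the brightest, over 9 arrays) and read 0.56 (adjusted p = 0.196). The third, 1422005_at, had signals of 142.9 to 230.9 in apoE-/- and 140 to 176.3 in wild-type tissue and read 0.09 with an interval of -0.29 to 0.47 (adjusted p = 0.838).

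Adar, the editing enzyme, showed no passing difference. Its probe set 1434268_at had signals of 1741.2, 1982.6, 1760.8 and 1509.7 in apoE-/- and 1641.2, 1394.4, 1654, 1628.6 and 1388.6 in wild-type replicates 1 to 5. Replicate 4 of apoE-/- lay within the wild-type range, and the log2 difference was 0.19 with a 95% interval of -0.04 to 0.43 (limma, adjusted p = 0.416). The probe set 1439276_at read 0.03 with an interval of -0.45 to 0.51 (adjusted p = 0.964), and 1425405_a_at was called absent on every array.

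**Figure D3:**
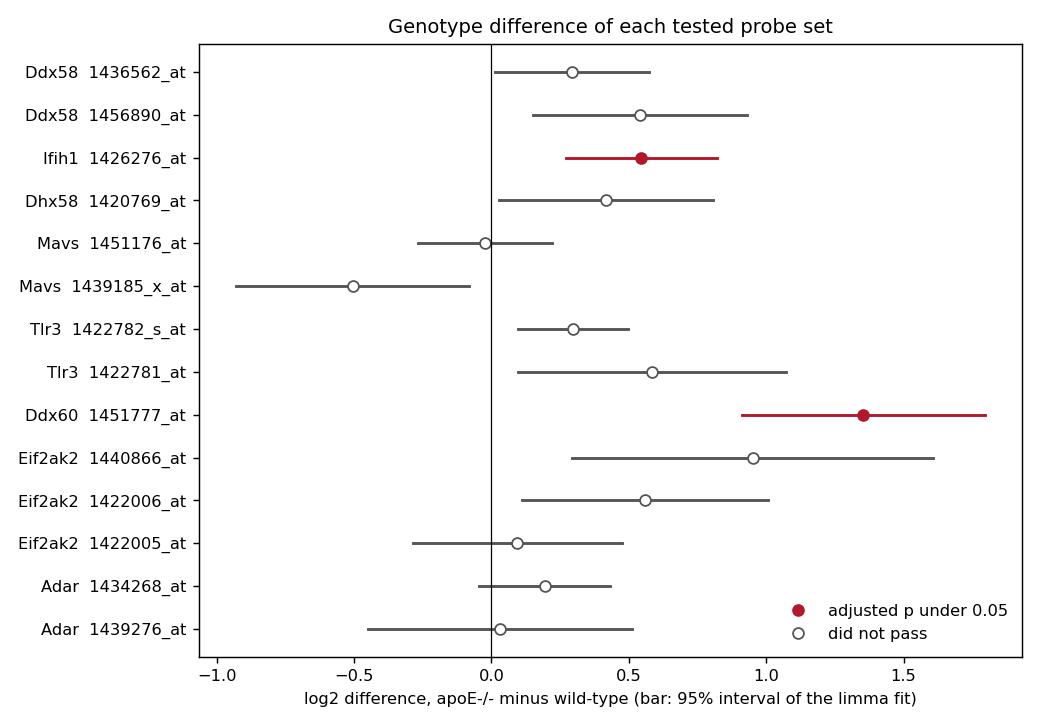
Log2 difference, apoE-/- minus wild-type, of each of the 14 tested probe sets (points) with its 95% interval from the limma fit (bars). Filled red points passed an adjusted p of 0.05: Ddx60 at 1.35 and Ifih1 at 0.55; open points did not pass.

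Whether probe sets differed from each other in their genotype difference was tested on the gap between 2 probe sets on each array, over the 126 splits of 9 arrays into 4 and 5, a comparison added after the values were seen. The rise of Ddx60 exceeded the difference of Ddx58, Ifih1, Dhx58, Mavs, Tlr3 and Adar, each read by its brightest probe set. These 6 gaps were 0.81 to 1.38 on the log2 scale, and in each the groups were apart (two-sided exact permutation p = 0.00794, the lowest that 126 splits allow, and 0.00926 adjusted over 7 pairs). Against Eif2ak2 the gap was 0.40 (exact permutation p = 0.421). Ddx60 was already known as the largest of these rises, so these tests are not independent of the choice to set it against the others. Within genes, 0 of 7 pairs of probe sets differed after adjustment, and 2 pairs had an exact permutation p under 0.05 before it. The widest gap was 0.86, between the readings of 1440866_at and 1422005_at of Eif2ak2 (exact permutation p = 0.0317, adjusted 0.167).

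The low readings were not spread evenly over arrays. Wild-type replicate 1 was the lowest of all 9 arrays in 6 of the 14 tested probe sets, among them Ddx60 and both of Ddx58, and the highest in 1. It is the array with the most neuron and oligodendrocyte signal. Deviations from each probe set's mean, averaged over the 14, were -0.3 in wild-type replicate 1 and -0.3011 in wild-type replicate 2. Replicate 2 had a neuron signal of 1173 (893.5 to 1213.1 in apoE-/-) and an oligodendrocyte signal of 3028.9 (1954.6 to 3634.3 in apoE-/-). Without wild-type replicate 1 Ddx60 read 1.19 (adjusted p = 0.00316) and Ifih1 0.51 (adjusted p = 0.0717, limma). The part of neurons and oligodendrocytes was not tested further. In apoE-/- replicates 1 to 4 the macrophage marker signal was 17142.9, 16940, 19754.2 and 13326.6, beside Ddx60 signals of 279, 241.6, 260.9 and 291.9. The mean macrophage marker level and Ddx60 had a Pearson r of 0.573 over 9 arrays, and of -0.729 for deviations from the group means, as a description. The first of these values includes the genotype difference, and the part of macrophages in the rise of Ddx60 was not tested.

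**Figure D4:**
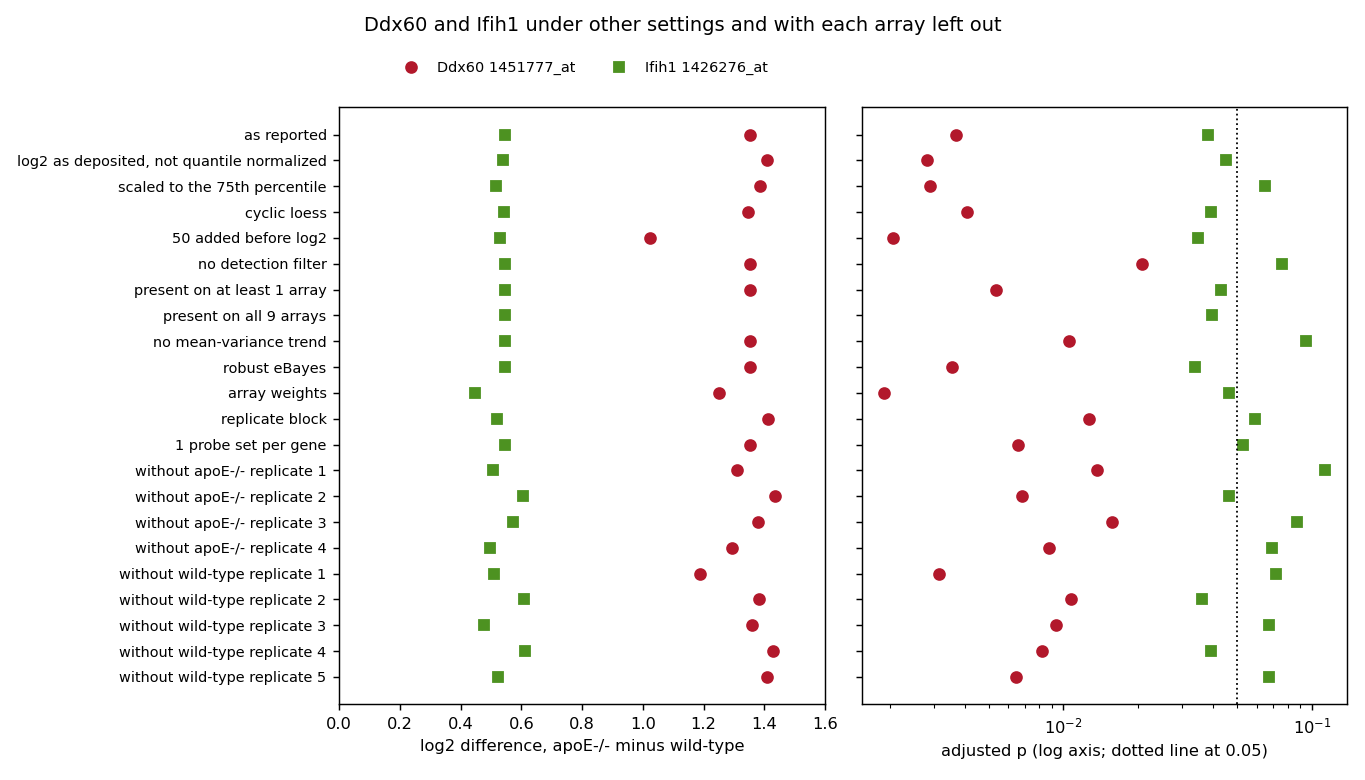
Log2 difference, apoE-/- minus wild-type (left), and adjusted p on a log axis (right) of Ddx60 1451777_at (circles) and Ifih1 1426276_at (squares) as reported, under 12 other settings and with each array left out. Ddx60 stayed left of the dotted line at 0.05 wherever it could be tested, and Ifih1 crossed it in 11 of 21.

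Around these sensors, each gene was read first by its brightest tested probe set and then by all its tested probe sets. Of 25 tested genes of RIG-I-like receptor and Mavs signalling, Irf7 rose and 0 fell, against 0.794% of 11089 genes called higher and 0.866% called lower. Irf7, an interferon-induced transcription factor that drives interferon genes, read 1.08 (2.12-fold; limma, adjusted p = 0.0136), and it also stands in the interferon-induced list below. Over all 48 tested probe sets of these 25 genes, 2 were called higher and 1 lower, against 0.67% and 1.92% of all tested probe sets. The added calls were a dimmer probe set of Trim25, which ubiquitinates RIG-I, at 0.46 (adjusted p = 0.0257, against 0.27 and adjusted p = 0.209 by the brightest), and one of Ikbkg, a subunit of the IKK complex, at -1.01 (adjusted p = 0.0428, against -0.10 and adjusted p = 0.698 by the brightest). Trim25 did not pass when apoE-/- replicate 1, 2 or 3 was left out, nor when wild-type replicate 1 or 4 was (adjusted p up to 0.101). Ikbkg did not pass when apoE-/- replicate 1, 2 or 3 was left out, nor when wild-type replicate 3, 4 or 5 was (up to 0.127). The list's median log2 difference was 0.0098, against 0.017 over all genes. Of 7 tested interferon receptor and signalling genes 0 passed and 0 had an unadjusted p under 0.05 (limma), with Ifnar1, a chain of the type I interferon receptor, at 0.16 (adjusted p = 0.594) and the kinase Jak1 at -0.19 (adjusted p = 0.417). A dimmer probe set of each read the other way, Ifnar1 at -0.69 (limma, adjusted p = 0.214) and Jak1 at 0.16 (adjusted p = 0.494). Over all 12 tested probe sets of these 7 genes, 0 were called. Of 5 probe sets of interferon genes themselves, for Ifna1, Ifna2, Ifna4, Ifnb1 and Ifng, 4 were called present on no array and 1 on 1 array.

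Of 11 tested genes of endosomal nucleic acid sensing, 2 rose and 1 fell, against 0.794% of all genes called higher and 0.866% called lower. Over all 19 tested probe sets of these genes, 2 were called higher and 1 lower, against 0.67% and 1.92% of all tested probe sets. Ctsl and Lgmn, lysosomal proteases that can cleave endosomal receptors, rose 1.37-fold (adjusted p = 0.0217) and 1.39-fold (adjusted p = 0.0235), and Dnase2a, the lysosomal DNase, fell by 0.80 on the log2 scale (limma, adjusted p = 0.0164). A dimmer probe set of Ctsl read 0.30 without passing (limma, adjusted p = 0.306). Both proteases are also made by macrophages, whose 11 tested markers read higher in apoE-/-, and the part of those cells was not tested. Each of these 3 calls was lost when some arrays were left out. Leaving out apoE-/- replicate 2 gave Ctsl an adjusted p of 0.0631, apoE-/- replicate 3 gave 0.0868, wild-type replicate 2 gave 0.0593 and wild-type replicate 4 gave 0.0686. Leaving out apoE-/- replicate 1 gave Lgmn 0.0706, apoE-/- replicate 3 gave 0.0884, wild-type replicate 2 gave 0.0608 and wild-type replicate 4 gave 0.0634. For Dnase2a, whose probe set is of a kind that may bind other transcripts, it was 0.0501, 0.0663 and 0.0532 without apoE-/- replicate 1, apoE-/- replicate 3 and wild-type replicate 4.

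In the remaining lists, Ddx31 was the 1 gene called by its brightest probe set (limma), and dimmer probe sets of 5 genes were called lower. By the brightest probe set, 7.99% of all genes read higher and 6.83% lower at an unadjusted p under 0.05. Of 17 genes of DNA and Z-form nucleic acid sensing, 1 read higher and 2 lower at that level, with Pycard, an inflammasome adaptor, at 0.38 (adjusted p = 0.182) and Polr3a, the large subunit of RNA polymerase III, at -0.31 (adjusted p = 0.23). Of 15 genes of nucleic acid clearance and RNA decay, 1 read higher at that level, Zc3hav1, an antiviral RNA-binding protein, at 0.36 (adjusted p = 0.172), and Wdr61, a subunit of the Ski complex, read -0.15. The 3 other probe sets of Wdr61 read 0.01 to 0.14. Of 16 genes around PKR and translation control 3 read higher at that level, with Tarbp2, which binds and restrains PKR, at 0.45 (adjusted p = 0.088) while its other probe set read -0.39, and the initiation factor subunit Eif2s3x at 0.21 (adjusted p = 0.17). Of 40 other DEAD and DEAH box helicases, the family to which Ddx60 is related, 0 rose and 1 fell by the brightest probe set. The shares of all genes were 0.794% called higher and 0.866% called lower. Ddx31 fell by 0.66 on the log2 scale (limma, adjusted p = 0.0446), with a list median of 0.02. Another probe set of Ddx31 read 0.04 (adjusted p = 0.95). The call of Ddx31 was lost without apoE-/- replicate 2 or 3 (0.119 and 0.154) and without wild-type replicate 1, 3, 4 or 5 (0.0828, 0.0805, 0.111 and 0.0693).

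Over all 69 tested probe sets of the 40 helicases, 0 were called higher and 4 lower, against 0.67% and 1.92% of all tested probe sets. The added calls were dimmer probe sets of Dhx36, Ddx3x and Ddx6. The RNA helicase Dhx36, which also stands in the list of DNA and Z-form sensing, read -1.19 (adjusted p = 0.00871), against 0.07 by its brightest probe set. Ddx3x, a helicase of translation, read -0.52 (adjusted p = 0.00789), against 0.05 by its brightest. Ddx6, a helicase of RNA decay bodies, read -0.98 (limma, adjusted p = 0.0201), against 0.20 by its brightest, and did not pass without wild-type replicate 4 (0.0654). Around PKR, 0 of 37 tested probe sets were called higher and 2 lower. Eif2s2, a subunit of the initiation factor that PKR phosphorylates, read -0.58 by 1 of 6 probe sets (limma, adjusted p = 0.0167, but 0.0538 and 0.0651 without apoE-/- replicate 2 and 3). Strbp, an RNA-binding protein of spermatids, read -1.36 by 1 of 6 probe sets (limma, adjusted p = 0.0148). With each array left out in turn, this probe set could be tested in only 5 of the fits and passed in 4 of them. It did not pass without apoE-/- replicate 3 (adjusted p = 0.0544), and in the remaining fits it was not tested. In each of these 5 genes the brightest probe set did not pass, and the difference between the probe sets of a gene was not tested here. These dimmer probe sets were named after their values were seen.

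Of 36 tested interferon-induced genes outside the sensors, 17 rose and 0 fell, against the 0.794% and 0.866% of all genes given above. This list was chosen with earlier results of these data known, so its shares are not independent of that choice. Of the 36, 35 read higher, where 53.4% of all genes did, and the median log2 difference was 0.65. Oas1a, 1 of the 17, had a present call on all 4 apoE-/- arrays and on 0 in wild-type tissue, so it entered the test through apoE-/- alone. Ifit3, which holds back viral RNA translation, rose 3.64-fold (adjusted p = 0.00432), Oasl2 of the oligoadenylate synthetase family 2.60-fold (adjusted p = 0.00479) and the guanylate-binding protein Gbp3 2.08-fold (limma, adjusted p = 0.0084). The difference of 1.35 for Ddx60 lay between those of Ifit3 (1.86) and Gbp3 (1.06), and below that of Oasl2 (1.38), while Ifih1 at 0.55 lay under the list's median. The number that rose was 9 of 34 tested genes without apoE-/- replicate 1, 2 or 3, and 16 of 34 without apoE-/- replicate 4. It was 12 to 14 of 36 with any wild-type array left out. Oas1a no longer met the filter once an apoE-/- array was left out.

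**Figure D5:**
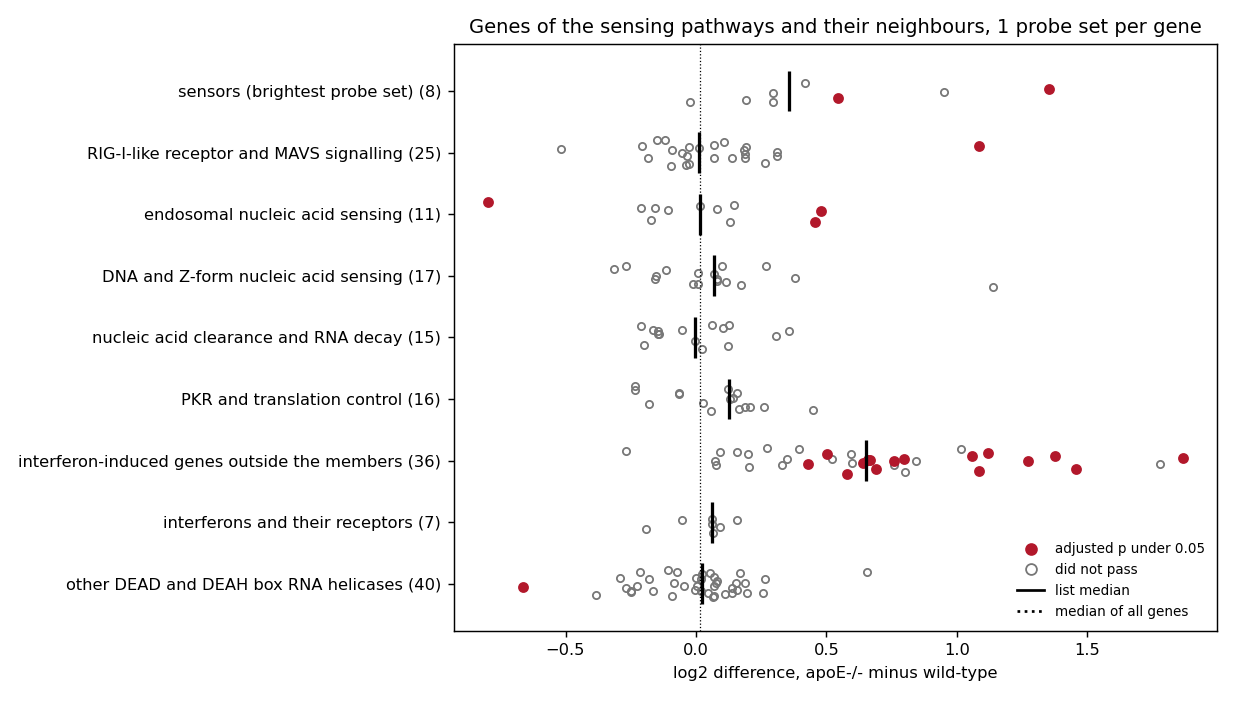
Log2 difference, apoE-/- minus wild-type, of each gene (points, brightest tested probe set) in the sensors and 8 lists, with the number of genes tested in brackets. Filled red points passed an adjusted p of 0.05, black bars are list medians and the dotted line is the median of all genes; 17 of 36 interferon-induced genes passed, and medians of the other lists lay from -0.0022 to 0.13.

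The 5 genes whose values followed Ddx60 most closely over the 9 arrays, of 11088 others read by their brightest probe set, were Gbp3 (Pearson r = 0.98), Ash2l (0.964), Xaf1 (0.956), Mgat3 (0.955) and Apod (0.95). Ash2l and Mgat3 did not pass the genotype test (log2 differences of 0.34 each). These 9 arrays share the genotype difference, which any gene that differs by genotype also carries. By deviations from the group means the closest were Prcc (0.957), Tmem168 (0.955), Zfp770 (0.951), Apln (0.948) and AW549877 (0.944), none shared with the first 5, while Gbp3 had 0.938 and Xaf1 0.891. Prcc read -0.88 (adjusted p = 0.0428), opposite in sign to Ddx60, and did not pass with 7 of the 9 arrays left out in turn (adjusted p up to 0.119). Among the sensors, the correlation with Ddx60 was 0.881 for Ifih1, 0.781 for Ddx58, 0.766 for Dhx58, 0.71 for Tlr3, 0.58 for Eif2ak2, 0.338 for Adar and 0.05 for Mavs. By deviations from the group means it was 0.74 for Ddx58, 0.555 for Ifih1, 0.393 for Dhx58 and 0.388 for Mavs, and below 0 for Tlr3 (-0.642), Adar (-0.585) and Eif2ak2 (-0.119). With 9 arrays and so many genes, high values arise among unrelated genes too, and no test is attached to them.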

How the data were processed

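The deposited table gave a signal intensity on a linear scale for each of 45101 probe sets per array, made by the authors with GCOS 1.4, per the submitters' processing notes; no source used here gives the background and summary steps. All 405909 signals equalled those of the series matrix, and the mean trimmed at both ends was 500.003 on every array. The 9 columns of detection p-values were left out. A call column was matched to the signal column it follows in the header, and each of the 9 sets of calls followed its own signal closest.

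Signals were taken to log2 and quantile normalized. Probe sets other than 64 controls, present on at least 4 arrays, were fitted with limma 3.58.1 in R 4.3.3 (mean-variance trend, genotype alone, two-sided), 21478 in all. The number of arrays limits the precision. Genes were named from the platform annotation (34958 probe sets with 1 symbol, 932 with several, 9211 not listed), and all 9 sensors matched by gene ID to GRCm38.p6. In simulated arrays of this comparison over 21478 probe sets, 30%, 76.5% and 98.5% of 200 changed probe sets were recovered at 1.5-fold, 2-fold and 4-fold.

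The sensors and lists were chosen with earlier results of these data known. Named genes were every sensor probe set, Apoe, up to 3 passing genes per direction and list (or 2 not passing), and the 5 genes most like Ddx60 by each correlation. The alternatives were other scalings, filters, variance models, array weights, a replicate block, 1 probe set per gene and each array left out. Whether replicate numbers mark a shared day or batch is not in the labels. The deviations of same-numbered samples correlated at 0.16, -0.015, 0.0307 and 0.008, so the numbers were not used as pairs.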

Additional observations from a re-analysis of the deposited data

Results flagged for a closer look

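Among the 28 group readings of the 14 tested sensor probe sets, 3 held an array far from the rest of its group, judged by the gap to the nearest array over the group's range. Chance gives about 1 in 20 groups. Ddx60 was lowest in wild-type replicate 1 at 6.03 on the normalized log2 scale, against 6.69 for the next array. Eif2ak2 1440866_at was lowest in wild-type replicate 2 at 6.86, against 8.25 for the next. Tlr3 1422782_s_at was highest in apoE-/- replicate 3 at 10.6, against 10.54 for the next, where the 4 arrays had signals of 1457.6 to 1539.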

How the results depend on the processing

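Over 21 alternatives, Ddx60 passed in all 20 where it was tested (log2 difference 1.02 to 1.43, adjusted p 0.00189 to 0.0207); it was not tested among probe sets present on all 9 arrays. Ifih1 kept its direction in 21 and passed in 10. The number of sensor probe sets called higher was 1 with scaling to the 75th percentile, with no filter, among probe sets present on all 9 arrays, without the mean-variance trend and with 1 probe set per gene, and 1 to 2 with an array left out; 0 were called lower throughout. With the replicate block it was 2, but Ifih1 did not pass (adjusted p = 0.0591) and Tlr3 1422781_at did (log2 difference 0.76, adjusted p = 0.0314); all probe sets called were then 176 higher and 421 lower. Of all probe sets, 81 were higher and 248 lower with no filter, 57 and 252 without the trend, 372 and 706 with array weights, and 64 and 67 with 1 probe set per gene. With an array left out these were 55 to 246 higher and 204 to 540 lower. Signs turned only for readings near 0 that never passed: Mavs 1451176_at read 0.0071 with array weights and -0.0726 to 0.0464 with an array left out, Eif2ak2 1422005_at -0.0159 to 0.208, and Adar 1439276_at -0.0041 with the block and -0.126 to 0.227 with an array left out. All 182 gap readings kept their direction and side of the threshold. Interferon-induced genes called higher were 8 of 41 tested with no filter, 8 of 36 without the trend and up to 19 of 36 with array weights. The cause of these shifts was not tested.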
